A study of Anser cygnoides with 11 samples.

Results

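The genes described here answer to food intake and blood glucose: PDK4, IRS2, FOXO1, FOXO3, ANGPTL4, TXNIP, PCK1, PCK2, FBP1 and PPARGC1A. They were picked by symbol with earlier gout-against-control results of these goslings known, and where a symbol had several rows the row with the highest mean FPKM (fragments per kilobase of transcript scaled to sequencing depth) stood for it. Of the 10 symbols, 8 had a row among the 19275 rows of the deposited table and PCK2 and FBP1 had none. All 8 were among the 12252 rows tested, those with 1 FPKM or more in no fewer than 5 libraries. The data are kidney RNA sequencing of young swan geese (Anser cygnoides): 5 birds chosen for typical visceral gout and serum changes, and 6 healthy birds. No genotype, strain, age, sex, feeding state or drug is given for either group, so differences in these between the groups could not be examined. The oxygen-lowering treatment that the labels attach to all samples concerns water tanks and cannot apply to kidneys of goslings. Sequencing depth is unknown, because the table holds no counts.

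Kidney is, with liver, an organ that makes glucose. When insulin is low and glucocorticoids and glucagon are high, the FOXO transcription factors stay in the nucleus and, with the coactivator PGC-1alpha (PPARGC1A), raise genes of glucose production such as PCK1, while PDK4 switches off pyruvate dehydrogenase and so keeps pyruvate from being burned. IRS2, the adaptor that carries the insulin signal inward, is itself raised by FOXO factors in fasted mammalian liver. In chickens, liver relies on the mitochondrial form of phosphoenolpyruvate carboxykinase (PCK2) and the cytosolic form (PCK1) is prominent in kidney.

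PDK4 was on average 3.29 times as high in gout as in control kidney and was the single member called, close to the threshold and in 8 of 22 alternative settings. The row that stands for IRS2 was not called. A second IRS2 row, which holds the annotated transcript and was taken up after its values were seen, was 2.23 times as high, with every gout bird above every control bird; with both rows summed the call was lost. PCK1, the most abundant member, varied more within each group than between them, and FOXO1, FOXO3, ANGPTL4, TXNIP and PPARGC1A did not pass the test.

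**Figure D1:**
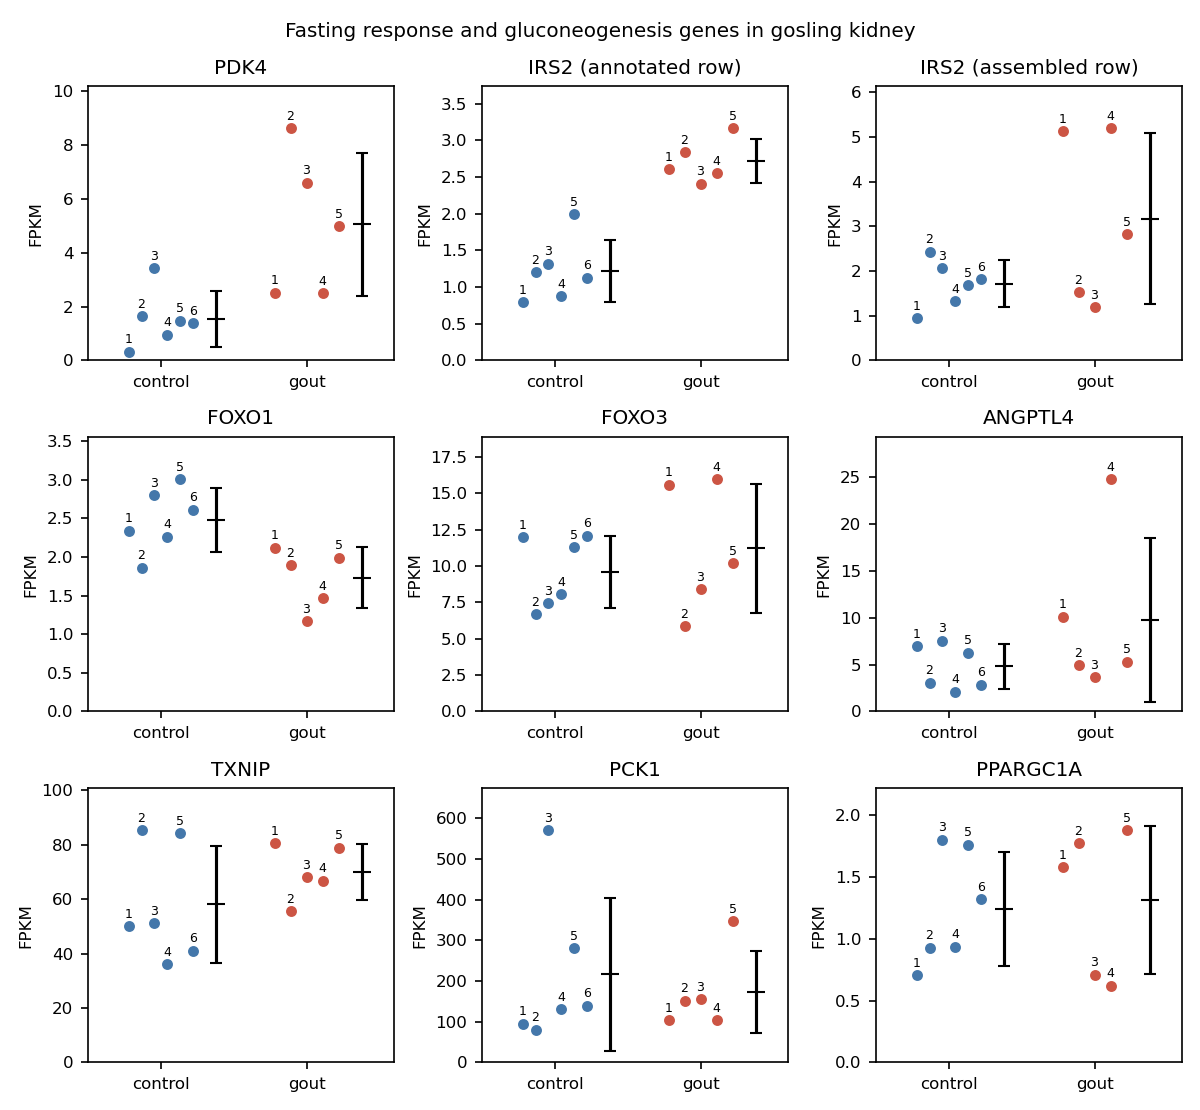
FPKM (vertical axes, from 0) of each gene in the 6 control (blue) and 5 gout (red) kidneys, numbered by gosling, with the group mean and SD (black). In the annotated IRS2 row the groups do not overlap (2.41 to 3.17 in gout, 0.794 to 1.99 in control); in PDK4 they overlap at control 3 (3.43).

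PDK4, the pyruvate dehydrogenase kinase induced by fasting, measured 2.52, 8.64, 6.61, 2.50 and 4.98 FPKM in gout goslings 1 to 5. In control goslings 1 to 6 it measured 0.319, 1.64, 3.43, 0.954, 1.48 and 1.38 FPKM. Each gout bird lay above 5 of the 6 controls, and control 3 exceeded gout 1 and gout 4. The means were 5.05 ± 2.66 and 1.53 ± 1.04 FPKM (SD, n = 5 and 6), and the log2 fold change on the log2(FPKM + 1) scale was 1.23 (SE 0.33, 95% interval 0.52 to 1.95, limma adjusted p = 0.0412). The pseudocount of 1 weighs on a gene this low: with 0.1 the log2 fold change was 1.75 (limma adjusted p = 0.0524). The call was also lost without control 1, 2, 4, 5 or 6 and without gout 2, 3 or 5 (limma adjusted p between 0.051 and 0.104), and was kept without control 3, gout 1 or gout 4. PDK4 was therefore close to the threshold. Its log2 fold change stayed above 0 in each setting tried, some of which leave it unchanged by construction, so this is a description only.

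Scaling to library totals kept PDK4 of each gout bird above 5 of the 6 controls, while gout 1 and gout 4 changed places and the call was lost. The FPKM columns of gout 2 and gout 3 had the lowest totals (246944 and 229465, against 306484 or more in the other libraries). With each column rescaled to the same total (the TPM scale), PDK4 stood at 6.88, 35.0, 28.8, 7.60 and 12.4 TPM in gout and between 0.817 and 11.2 TPM in control kidneys. On that scale the log2 fold change was 1.69 (limma adjusted p = 0.0689). After quantile normalization, which gives the libraries equal distributions, it was 1.62 (limma adjusted p = 0.0378).

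The other pyruvate dehydrogenase kinases did not follow PDK4. PDK1 averaged 7.33 ± 1.34 FPKM with gout and 7.85 ± 1.61 without (SD, n = 5 and 6), and PDK3 at 9.92 ± 2.91 and 16.1 ± 3.46 FPKM (limma adjusted p = 0.807 and 0.0896). PDK2 had no row under its symbol. PDK4 made up 11.8, 34.9, 29.1, 17.0 and 17.8% of the summed FPKM of PDK1, PDK3 and PDK4 in gout goslings 1 to 5. Its share in control goslings 1 to 6 was 1.41, 8.04, 10.5, 4.55, 4.64 and 5.72%. A share within a library does not change when all its values are multiplied by the same factor, and here the groups did not overlap. The share also follows PDK3, which stood at 20.6 FPKM in control 3, against 9.94 and 6.3 FPKM in gout 1 and gout 4. PDK4 itself was higher in control 3 than in those 2 gout birds. The share was chosen after the values were seen and was not tested. Beside PDK4, none of the 11 tested genes of the pyruvate dehydrogenase complex, its kinases, phosphatases and pyruvate carriers was called, against 6.99% of all tested rows. PDP2, a phosphatase that reverses the kinases, had the smallest p of the 11 (1.93 ± 0.534 against 3.60 ± 1.29 FPKM, limma adjusted p = 0.0813).

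The profiles most like that of PDK4 were sought among the tested rows with a gene symbol, as the mean absolute difference of log2(FPKM + 1) over the 11 goslings once each row's own mean was taken out. The nearest were ZBTB47 (0.41), MORC4 (0.42) and CORO2B (0.42). These 3 distances were close to each other, and none of the 3 genes was called (limma adjusted p = 0.438, 0.366 and 0.0825).

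IRS2 has a pair of rows. The more abundant, which stands for the gene by the rule on mean FPKM, holds a single transcript assembled from the reads, with no description and no RefSeq accession. It measured 5.13, 1.52, 1.19, 5.20 and 2.82 FPKM in gout goslings 1 to 5. The 6 controls, taken in order, stood at 0.948, 2.43, 2.07, 1.32, 1.69 and 1.82 FPKM. Gout 1, gout 4 and gout 5 lay above all controls and gout 2 and gout 3 among them, and the row was not called (log2 fold change 0.51, SE 0.29, limma adjusted p = 0.264).

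The other IRS2 row holds the RefSeq transcript that is named IRS2 in the Taihu goose annotation. It measured 2.61, 2.84, 2.41, 2.55 and 3.17 FPKM in gout goslings 1 to 5, a narrow range on the deposited scale with a coefficient of variation of 11.1%. Among controls 1 to 6 the values were 0.794, 1.20, 1.32, 0.875, 1.99 and 1.13 FPKM. The groups did not overlap, as was the case with gout above control in 0.482% of all tested rows. The log2 fold change was 0.76 (SE 0.17, 95% interval 0.40 to 1.12, limma adjusted p = 0.0197). The call was lost without gout 2 (limma adjusted p = 0.0521) and held without each other gosling. On the TPM scale and after quantile normalization the log2 fold change was 1.14 and 1.10 (limma adjusted p = 0.0190 and 0.00246). The gout values were wider apart on the TPM scale, from 7.14 to 11.5, with controls from 2.03 to 5.65. When both rows were summed, the log2 fold change was 0.79 and the call was lost, with a limma adjusted p of 0.056.

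IRS1, the related adaptor, stayed under the filter on low values, at 0.621 ± 0.207 FPKM with gout and 0.839 ± 0.306 without (SD, n = 5 and 6). The ratio of the annotated IRS2 row to IRS1 was 5.59, 5.92, 2.75, 3.10 and 6.81 in gout goslings 1 to 5. In control goslings 1 to 6 the ratio was 0.637, 1.54, 1.16, 2.14, 2.58 and 1.64. All gout birds were above all control birds in this ratio, with 2.75 as the lowest gout and 2.58 as the highest control value. The annotated IRS2 row on its own already set the groups apart (2.41 to 3.17 against 0.794 to 1.99 FPKM). The ratio was chosen after the values were seen and was not tested. INSR, the insulin receptor, stood at 2.45 ± 0.814 and 2.20 ± 0.809 FPKM (limma adjusted p = 0.778). Of 15 tested genes of insulin signalling 0 were called by limma, against 6.99% of all tested rows. PIK3R1, a regulatory subunit of phosphoinositide 3-kinase, had the smallest p (4.03 ± 1.46 against 7.12 ± 2.0 FPKM, limma adjusted p = 0.0896). After quantile normalization IRS4, a further member of the adaptor family, was called higher (limma adjusted p = 0.0337), a gene named after its values were seen.

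**Figure D2:**
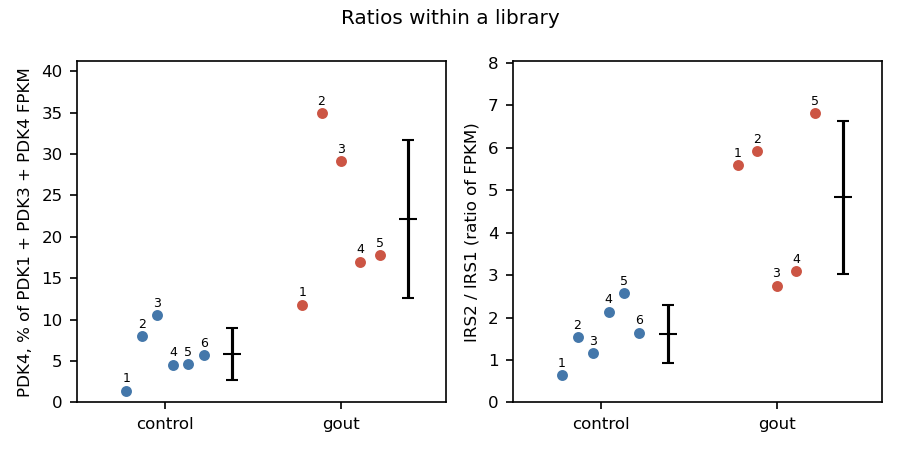
Ratios of FPKM within each library (vertical axes, from 0) in control (blue) and gout (red) kidneys, numbered by gosling, with mean and SD: PDK4 as a share of PDK1, PDK3 and PDK4, and the annotated IRS2 row over IRS1. The groups are apart in both panels, where gout starts at 11.8% and 2.75 and control ends at 10.5% and 2.58.

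Of the 8 members taken by the rule, 1 (PDK4) was called higher and 0 lower by limma at an adjusted p under 0.05. Among all tested rows 6.99% were called, 0.694% higher and 6.29% lower (85 and 771 rows). The split of the calls moved with the scaling, to 226 and 245 rows after quantile normalization and 181 and 341 after upper quartile scaling. A log2 fold change of at least 1 was reached by PDK4 alone among the members and by 1.4% of all tested rows higher in gout. At an unadjusted p under 0.05, too, PDK4 was the single member, against 27.0% of all tested rows, most of which fell. An exact two-sided rank-sum test of each row called 0 members and 0 rows after adjustment; at an unadjusted p under 0.05 it had 2182 rows, with exact p = 0.0173 for PDK4 and 0.0303 for FOXO1. The whole tested table had a median log2 fold change of -0.29 on the deposited scale, so changes on that scale are to be read against it. The median moved with the scaling, to 0.01 after quantile normalization, -0.07 after upper quartile scaling and -0.21 on the TPM scale. On the deposited scale 7 of the 8 members lay above the median and 6 above 0, as 23.2% of all tested rows lay above 0. The members were listed with these differences in view, so nothing is read from the counts, and the members' p-values are given as a description of the fit, not as independent support.

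**Figure D3:**
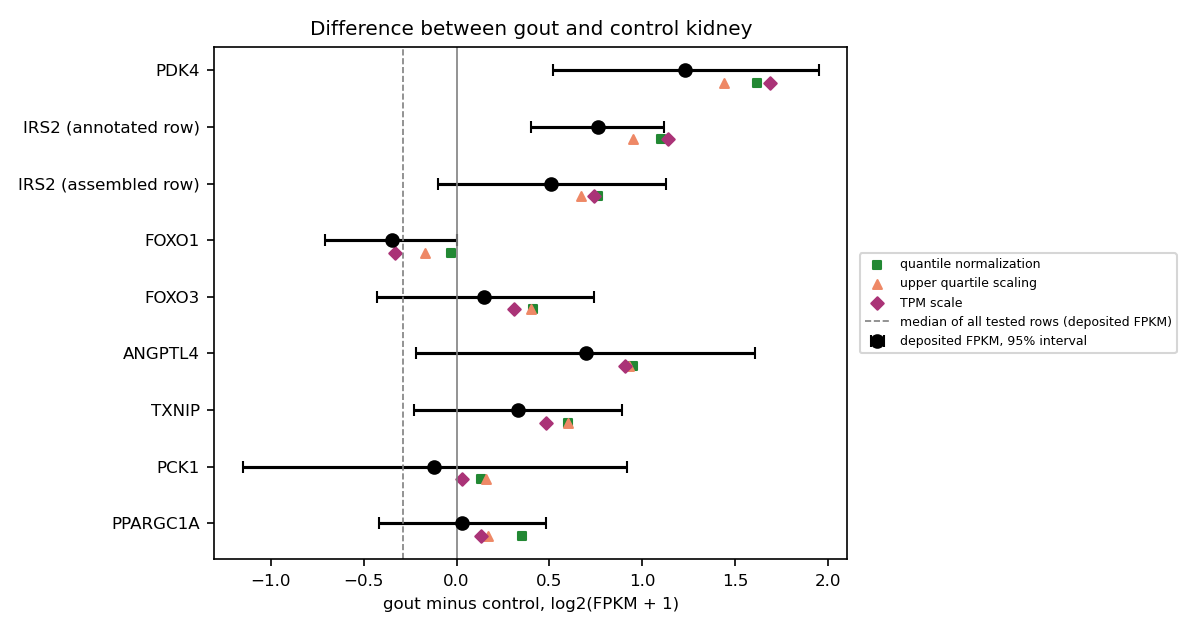
Difference between gout and control kidney (horizontal axis, log2(FPKM + 1)) with 95% interval on the deposited values (black), and the same under 3 other scalings (coloured). PDK4 at 1.23 and the annotated IRS2 row at 0.76 have intervals above 0; the dashed line at -0.29 is the median of all tested rows.

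The FOXO transcription factors did not pass the test. FOXO1 measured 2.12, 1.89, 1.17, 1.47 and 1.99 FPKM in gout goslings 1 to 5. In control goslings 1 to 6 it measured 2.34, 1.86, 2.80, 2.26, 3.01 and 2.61 FPKM. No gout bird exceeded the control median of 2.48 FPKM, and control 2 lay within the gout range. On the TPM scale gout 2 (7.66 TPM) lay above control 1, control 2 and control 4 (5.99, 5.38 and 6.95 TPM). The log2 fold change of -0.35 (SE 0.17, 95% interval -0.71 to 0.00, limma adjusted p = 0.19) differed by -0.07 from the median of all rows, and after quantile normalization it was -0.03.

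FOXO3, the more abundant of the pair, measured 15.6, 5.88, 8.41, 16.0 and 10.2 FPKM in gout goslings 1 to 5. Its control values, goslings 1 to 6, were 12.0, 6.70, 7.45, 8.07, 11.3 and 12.1 FPKM. Gout 1 and gout 4 were above all controls. Gout 2 was below all controls in FPKM, while on the TPM scale it (23.8 TPM) lay above control 2 (19.4 TPM). The log2 fold change was 0.15 (SE 0.27, 95% interval -0.43 to 0.74, limma adjusted p = 0.737), and with array weights its sign turned (-0.03). FoxO proteins are regulated mainly by phosphorylation and location in the cell, which messenger RNA does not show.

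Targets of FOXO factors were called in both directions. Of 20 tested genes on that list 1 rose (5%, against 0.694% of all tested rows), 3 fell (15%, against 6.29%) and 16 were not called. IGFBP1, a secreted binding protein for insulin-like growth factors that insulin represses, was 8.77 times as high in gout kidney and stayed called with any one gosling left out (limma adjusted p = 0.000534). SOD2, the mitochondrial superoxide dismutase, fell from 123 ± 35.9 to 55.1 ± 35.0 FPKM (limma adjusted p = 0.0396). SESN3, a sestrin, fell from 1.93 ± 0.817 to 0.655 ± 0.213 FPKM (limma adjusted p = 0.0396). MAP1LC3B, a protein of autophagosomes, fell from 24.6 ± 8.17 to 12.5 ± 1.31 FPKM (limma adjusted p = 0.0444). With single goslings left out SOD2 was called in 3 of 11 fits, without control 6, gout 1 or gout 5, and in the others the limma adjusted p lay between 0.0558 and 0.1. SESN3 and MAP1LC3B were each called in 4 of 11 such fits, SESN3 without control 1, control 4, gout 1 or gout 5 and MAP1LC3B without control 4, control 6, gout 1 or gout 5; in the others their limma adjusted p lay between 0.0533 and 0.0911 and between 0.071 and 0.101. After quantile normalization SOD2 and IGFBP1 were called and SESN3 and MAP1LC3B were not (limma adjusted p = 0.168 and 0.119). The median log2 fold change of the list was -0.28, against -0.29 for all tested rows.

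ANGPTL4, a secreted inhibitor of lipoprotein lipase that fasting raises through PPARA, measured 10.1, 4.96, 3.68, 24.8 and 5.30 FPKM in gout goslings 1 to 5. The 6 controls, taken in order, stood at 6.95, 3.08, 7.54, 2.10, 6.27 and 2.87 FPKM. Gout 4 and gout 1 were above all controls, and the other gout birds lay among them. The gout coefficient of variation was 89.7%, and the log2 fold change of 0.70 (SE 0.43, 95% interval -0.22 to 1.61) was not called (limma adjusted p = 0.304). Without gout 4 it was 0.31 (limma adjusted p = 0.612). Gout 4 also had the highest summed FPKM of 6 hepatocyte markers in the table, at 28.0. The sum was 2.02 to 21.5 in the other gout and 5.93 to 18.3 in the control kidneys. In gout 4 FGB alone made up 23.9 of the sum, FGA and FGG stood at 0.647 and 0.417 FPKM, and the defining markers ALB and AHSG were listed at 0. Gout 5, with a sum of 21.5, held the highest ALB, FGA and FGG of the 11 kidneys (2.33, 4.47 and 8.05 FPKM). The part of hepatocyte RNA in the ANGPTL4 values was not tested.

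LPL, the lipase that ANGPTL4 inhibits, averaged 1.82 ± 0.852 FPKM with gout and 1.44 ± 0.406 without (SD, n = 5 and 6, limma adjusted p = 0.581). Of 8 tested angiopoietin-like and lipoprotein lipase genes 0 were called by limma. Of 20 tested genes of PPARA and fatty acid oxidation, the programme that takes over as glucose runs short, 0 were called. Both counts stand against 6.99% of all tested rows called. CPT1A, which admits fatty acids to mitochondria, stood at 7.08 ± 2.93 and 12.6 ± 5.11 FPKM (limma adjusted p = 0.137). EHHADH, a peroxisomal enzyme, had the smallest p in that list (20.8 ± 10.8 against 46.8 ± 20.4 FPKM, limma adjusted p = 0.062). After quantile normalization LPIN1, a phosphatidate phosphatase and coactivator named after its values were seen, was called higher (limma adjusted p = 0.0337).

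TXNIP, an arrestin that binds thioredoxin and limits glucose uptake, was abundant in both groups. It measured 80.5, 55.5, 68.2, 66.8 and 78.9 FPKM in gout goslings 1 to 5. In control goslings 1 to 6 it measured 50.2, 85.5, 51.3, 36.0, 84.3 and 41.1 FPKM. Each gout bird lay above the control median of 50.7, and control 2 and control 5 lay above all gout birds in FPKM. On the TPM scale gout 3 (297 TPM) lay above both of these controls (247 and 239 TPM). In FPKM the spread was narrower in gout (coefficient of variation 14.5%, against 37.1% in control). The difference of the means was not called (log2 fold change 0.33, SE 0.26, 95% interval -0.23 to 0.89, limma adjusted p = 0.424). TXN, thioredoxin itself, stood at 320 ± 170 and 299 ± 119 FPKM (limma adjusted p = 0.971). Of 14 tested genes of thioredoxin, arrestin domain proteins and glucose sensing 0 were called by limma, against 6.99% of all tested rows. SLC2A8, a glucose transporter, had the smallest p (7.14 ± 2.74 against 11.9 ± 3.01 FPKM, limma adjusted p = 0.11).

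PCK1, which commits oxaloacetate to glucose production, was higher in control kidney than 98.5% of tested rows. It measured 103, 152, 156, 103 and 347 FPKM in gout goslings 1 to 5. Control birds 1 to 6 had 94.8, 80.1, 571, 131, 280 and 139 FPKM. Control 3, control 5 and gout 5 stood above the rest, and the values spanned 7.13-fold among controls and 3.37-fold among gout birds. The log2 fold change of -0.12 (SE 0.48, 95% interval -1.15 to 0.92, limma adjusted p = 0.89) was smaller than its error. It was 0.13, 0.16 and 0.03 after quantile normalization, upper quartile scaling and on the TPM scale, and 0.24 without control 3, so no direction can be given. The interval allows a difference of about a log2 unit either way.

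PPARGC1A, the coactivator of PCK1, measured 1.58, 1.77, 0.709, 0.621 and 1.88 FPKM in gout goslings 1 to 5. Its control values, goslings 1 to 6, were 0.708, 0.927, 1.80, 0.935, 1.76 and 1.32 FPKM. In FPKM control 3 and control 5 were the highest controls and gout 5 the highest gout bird, as for PCK1. On the TPM scale gout 5 stayed the highest gout bird for PCK1 (867 TPM). For PPARGC1A gout 2 was then the highest (7.18 TPM, against 4.69 in gout 5). On the deposited scale the log2 fold change of PPARGC1A was 0.03 (SE 0.21, 95% interval -0.42 to 0.48, limma adjusted p = 0.942), and its sign turned without any one of 6 goslings. Of 13 tested partners of PGC-1 and genes of the CREB pathway 0 were called by limma, against 6.99% of all tested rows. CREB1 had the smallest p (2.31 ± 0.675 against 3.95 ± 0.846 FPKM, limma adjusted p = 0.0823). HNF4A, a partner of PGC-1alpha in gluconeogenic transcription, stood at 25.1 ± 9.68 and 26.0 ± 7.64 FPKM (limma adjusted p = 0.848).

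FBP1, fructose-1,6-bisphosphatase, had no row under its symbol. The table describes LOC106045365 as fructose-1,6-bisphosphatase 1-like; this row is not a member and was looked up after the list was applied. It measured 142, 459, 228, 187 and 666 FPKM in gout goslings 1 to 5. In control goslings 1 to 6 it measured 119, 172, 459, 594, 429 and 560 FPKM. The groups overlapped over most of their range (336 ± 221 and 389 ± 199 FPKM, SD, n = 5 and 6, limma adjusted p = 0.795). In FPKM gout 5 was the highest gout bird for this row and for PCK1. On the TPM scale gout 2 was the highest for this row (1859 TPM, against 1665 in gout 5).

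Other genes of the gluconeogenic pathway were lower in part. Of 15 tested 0 rose, 3 fell and 12 were not called. The falls made up 20% of the list, where 6.29% of the 12252 rows fell. The list median of -0.49 (log2 fold change) lay below the table median of -0.29, so part of the shift was shared with the table. With quantile normalization 1 of the 15 was called lower, which is 6.67% of the list beside 2% of the table. LDHB, the lactate dehydrogenase subunit of oxidative tissues, fell from 490 ± 141 to 188 ± 84.0 FPKM (SD, n = 6 and 5), a log2 fold change of -1.44 with SE 0.31 (limma adjusted p = 0.0175). MDH1, cytosolic malate dehydrogenase, fell from 162 ± 53.9 to 73.9 ± 32.5 FPKM (limma adjusted p = 0.0328). GLUD1, the glutamate dehydrogenase that feeds glutamine carbon into glucose, fell from 164 ± 56.3 to 74.1 ± 32.5 FPKM (limma adjusted p = 0.0439). LDHB lost the call without gout 2 (limma adjusted p = 0.0516). MDH1 was called only without control 2, control 4, control 6, gout 1 or gout 5, and GLUD1 only without gout 1 or gout 5; in the other such fits their limma adjusted p lay between 0.0597 and 0.0837 and between 0.0515 and 0.0994. After quantile normalization LDHB remained called, with MDH1 and GLUD1 at limma adjusted p = 0.0643 and 0.147.

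G6PC, glucose-6-phosphatase, which releases free glucose, averaged 14.8 ± 6.53 FPKM with gout and 27.5 ± 21.7 without (SD, n = 5 and 6, limma adjusted p = 0.347), with 69.3 FPKM in control 3. PC had no row under its symbol. The ratio of PCK1 to G6PC was chosen after the values were seen and was not tested. Its gout values spread on both sides of the controls, from 4.13 to 23.8 against 5.13 to 10.4.

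Some tubule markers were lower in gout along with these enzymes. Of 17 proximal tubule markers 12 were in the table and 11 tested. Of these 3 fell (SLC6A19, GATM and ANPEP) and 0 rose, where 6.29% of all tested rows fell and 0.694% rose. After quantile normalization ANPEP was not called (limma adjusted p = 0.0697), and it was called in 4 of the 11 fits that left out a gosling. AQP1 and SLC34A1 had log2 fold changes above 0 (0.30 and 0.13, not called), and the other tested proximal tubule markers below 0. The summed FPKM of the 12 markers was between 331 and 671 with gout and between 435 and 2091 without. Control 3 had the highest sum, as it had the highest PCK1. Of 8 loop and distal tubule markers, all tested, 3 fell as well (CALB1, CLDN19 and SLC12A1). Their list had a summed FPKM between 52.1 and 115 with gout and between 112 and 201 without. SLC12A1 was not called after quantile normalization (limma adjusted p = 0.108), and it was called in 6 of the 11 fits that left out a gosling. SLC12A3 had a log2 fold change of 0.07 (not called), and the other loop and distal tubule markers lay below 0. LRP2, the endocytic receptor of the proximal tubule, stood at 2.68 ± 2.45 and 6.86 ± 5.23 FPKM (limma adjusted p = 0.149). The 8 leukocyte markers were all called lower, with summed FPKM between 123 and 1522 with gout and between 1059 and 4971 without. Most of that sum was CD74, with a mean of 421 of 503 FPKM in gout and 2273 of 2770 FPKM in control. CSF1R, PTPRC and CD3E were called in 3, 5 and 6 of the 11 fits that left out a gosling, the other leukocyte markers in all 11. After quantile normalization CSF1R and PTPRC were not called (limma adjusted p = 0.0789 and 0.0649). The part of these cell types in the results was not tested, and in bulk tissue fewer cells of a type and less RNA per cell cannot be told apart. Among the 8 endothelial markers 0 were called by limma, against 6.99% of all tested rows. TEK had the smallest p of them (log2 fold change -0.59, limma adjusted p = 0.0506). Summed FPKM of the endothelial markers was between 12.2 and 29 with gout and between 22.5 and 50.9 without.

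**Figure D4:**
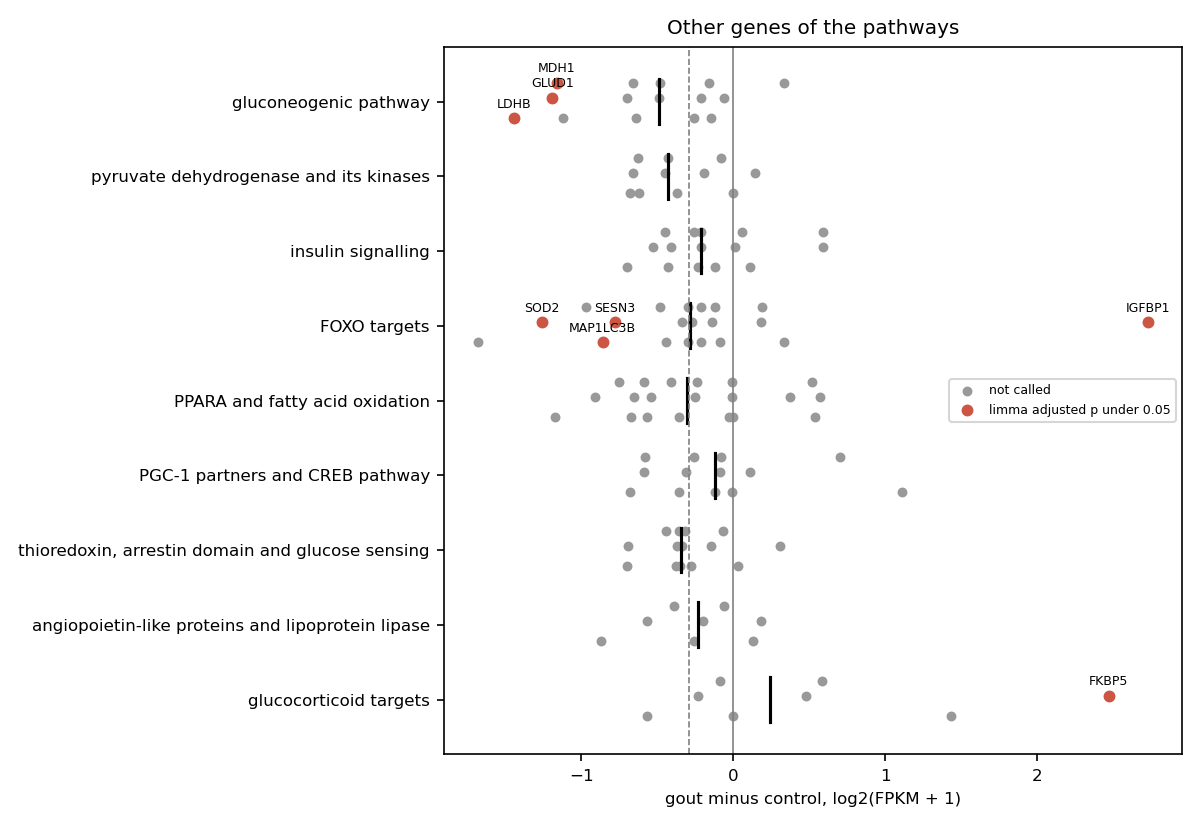
Difference between gout and control kidney (horizontal axis, log2(FPKM + 1)) for each tested gene of the 9 pathway lists, the members left out; red points passed limma at an adjusted p under 0.05, black bars are list medians, and the dashed line is the median of all tested rows (-0.29). IGFBP1 and FKBP5 stand far to the right; LDHB, GLUD1, MDH1, SOD2, SESN3 and MAP1LC3B are the called falls.

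Among glucocorticoid targets, which fasting and stress raise together with the gluconeogenic genes, 1 of 8 tested was called. The call was a rise, 12.5% of the tested list against 0.694% of all tested rows. FKBP5, the co-chaperone of the receptor, measured 270 to 369 FPKM in gout and 25.4 to 90.4 FPKM in control kidneys (limma adjusted p = 0.00145). The receptor gene NR3C1 stood at 3.92 ± 1.31 and 6.37 ± 2.12 FPKM (limma adjusted p = 0.164). LOC106049528, which RefSeq names TSC22D3, a further target, stood at 125 ± 33.5 and 124 ± 52.3 FPKM (limma adjusted p = 0.921). The list median of 0.24 lay above that of all tested rows, and ZBTB16 in its more abundant row was not called on the deposited scale (limma adjusted p = 0.0562) and was called after quantile normalization (0.0483). The other ZBTB16 row, looked up after the values were seen, rose from a mean of 1.12 to 10.2 FPKM (log2 fold change 2.32, limma adjusted p = 0.00176).

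Over all 9 lists together, 186 symbols other than the members, 143 were in the table and 124 were tested. Of these 2 rose (1.61%, against 0.694% of all tested rows), 6 fell (4.84%, against 6.29%) and 116 were not called. Their log2 fold changes had a median of -0.26, where that of the whole tested table was -0.29. After quantile normalization 5 were called higher (4.03%, against 1.84% of all tested rows) and 2 lower (1.61%, against 2%).

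Within the gout group the members did not move together. Gout 1 and gout 4 were set against the others after the values were seen, and this split was not tested. The assembled IRS2 row, FOXO3 and ANGPTL4 were each higher in gout 1 and gout 4 than in gout 2, 3 and 5. PDK4 and PCK1 were each lower in gout 1 and gout 4 than in those birds. Both orders were also seen with the columns rescaled to TPM. IGFBP1 had the first order as well, at 41.5 and 37.3 FPKM in gout 1 and gout 4 and 16.4 to 21.6 FPKM in the others. The order was common in the table, since 19.2% of tested rows were higher and 7.70% lower in gout 1 and gout 4 than in the other 3, and 16.2% and 20.1% after rescaling. The annotated IRS2 row, FOXO1, TXNIP and PPARGC1A had neither order on the deposited scale. On the TPM scale the annotated IRS2 row was lower in gout 1 and gout 4 than in the others.

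By mean level in control kidney the members ran from PCK1 (216 ± 188 FPKM) through TXNIP (58.1 ± 21.6), FOXO3 (9.60 ± 2.46), ANGPTL4 (4.80 ± 2.38), FOXO1 (2.48 ± 0.412), IRS2 (1.71 ± 0.530) and PDK4 (1.53 ± 1.04) to PPARGC1A (1.24 ± 0.462). TXNIP exceeded FOXO3 in all 11 libraries. PCK1 exceeded TXNIP in 10, ANGPTL4 exceeded FOXO1 in 10, and FOXO3 exceeded ANGPTL4 in 9. IRS2, PDK4 and PPARGC1A differed by less than their spread among controls, whereas PDK4 exceeded PPARGC1A in all 5 gout libraries. PDK4 in control kidney lay above 6.94% of tested rows and PPARGC1A above 3.31%. The rows of PCK1, TXNIP and ANGPTL4 join several transcripts, and the sources used here do not give how those were combined.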

How the data were processed

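Polyadenylated RNA of 11 kidneys was sequenced as paired ends, per the labels' protocols. HISAT and StringTie were used, per the submitters' processing notes; the sources used here give no versions, genome build or annotation. The authors deposited FPKM values, 1 column per gosling, matched here by title. In rows of 1 transcript 89.7% of values under 10 FPKM were written to 6 decimals, and in rows of several 4.99%, so the latter were combined in some way. No step shared by low values was found (at most 0.658% of low rows in any of 55 pairs of libraries), so no counts were recovered; depth is unknown and no counting interval is given.

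Values were analysed as log2(FPKM + 1) with limma 3.58.1 in R 4.3.3 (group as the term, empirical Bayes with a trend, two-sided, Benjamini-Hochberg over 12252 rows at 1 FPKM or more in no fewer than 5 libraries, threshold 0.05) and tabulated in pandas 2.3.3 and drawn in matplotlib 3.10.9 (Python 3.11.15). The fit was tested on simulated data. The birds are described as separate animals. Members, lists and tests were chosen with earlier results of these data known. Genes named were the members, up to 3 called genes of each list or that with the smallest p, 17 further symbols and the profiles nearest to members with a difference of at least 2-fold. Some genes under this rule are not reported here. Later choices are marked as made after the values were seen. Alternatives were other pseudocounts, filters, scalings, variance models, summed rows, leaving out each gosling, a block on the label number and the rank-sum test in its exact form. RefSeq names come from the Taihu goose assembly and its coordinates were not used. No gene or promoter sequence was used here.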

Additional observations from a re-analysis of the deposited data

Results flagged for a closer look

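Of 78 groups of values examined, those of the members and named genes in each group, 3 held a bird far from the rest by a criterion that chance meets in about 1 of 20 groups; none was a member. TXN was low in control 3 (77.3 FPKM, next 294). PDP2 was high in control 3 (6.17 FPKM, next 3.64). CORO2B was high in gout 2 (7.92 FPKM, next 3.80).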

How the results depend on the processing

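The number of rows called (856) became 450 with the filter at 5 FPKM, 471 after quantile normalization, 522 after upper quartile scaling and 0 by the exact rank-sum test, and ranged from 316 (without gout 2) to 1466 (without gout 5) when single goslings were left out. The number of members called (1, PDK4) became 0 with either smaller pseudocount, with no filter, with the filter at 5 FPKM (which PDK4 did not pass), after upper quartile scaling, on the TPM scale and by the rank-sum test, and ranged from 0 to 1 across the fits that left out a gosling. The number of pathway genes called (8) became 5 after upper quartile scaling and 0 by the rank-sum test, whose smallest possible exact p is 0.00433, and ranged from 2 (without gout 2) to 19 (without gout 5). The cause of these shifts was not tested. No member but PDK4 was called in any alternative for the rows chosen by mean FPKM, and PDK4 was called in 8 of 22. The annotated IRS2 row, taken up after the values were seen, was called in 19 of 21. With the label number as a replicate block 671 rows, 1 member and 9 pathway genes were called. The labels do not say whether birds of the same number share anything else. Their deviations correlated at -0.086 to 0.241, and of the gout birds only gout 1 correlated best with the control of its own number. So few correlations cannot settle whether the birds were paired. Depth is unknown, so how far counting error limits the rows near 1 FPKM, among them IRS2, PDK4, FOXO1 and PPARGC1A, cannot be given.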
